A study of Mus musculus with 15 samples.

Results

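The comparison described here asks which transcripts of the hippocampus differ when the mineralocorticoid receptor (MR, encoded by Nr3c2) is lost in addition to the glucocorticoid receptor (GR, encoded by Nr3c1). Its members were chosen by genotype label and are 7 of the 15 arrays of the series: 3 arrays of GRMREmx1-cre mice, which lack both receptors, and 4 arrays of GREmx1-cre mice, which lack GR. Both groups carry Emx1-Cre and floxed Nr3c1, so the absence of GR and the presence of Cre are shared. By the design as read here, only the GRMREmx1-cre mice also carry floxed Nr3c2. The other arrays of the series are 4 of MREmx1-cre mice, which lack MR and keep GR, and 4 of dflox mice, which carry floxed alleles of both genes without Cre. All were male C57BL/6 mice of about 2.5 months, and RNA came from the whole hippocampus of both hemispheres. The labels number the arrays within a genotype and name neither individual mice nor pools, so p-values measure the spread between these samples.

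Corticosterone, the main glucocorticoid of the mouse, binds both receptors. MR has the higher affinity and is occupied at resting hormone levels, whereas GR is filled mainly at the daily peak and in stress. Both are transcription factors that recognise the same kind of palindromic DNA element, and MR is abundant in the pyramidal and granule cells of the hippocampus. Emx1-Cre recombines in the dorsal forebrain lineage, which gives rise to excitatory neurons and to many astrocytes. Interneurons, microglia and endothelial cells come from other lineages and are expected to keep both receptors, so whole-hippocampus RNA mixes cells that lost the receptors with cells that did not.

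Array brightness was similar, with a 75th percentile of intensity from 821 to 1027. Levels below are log2 intensities relative to that percentile of the same array, and differences are GRMREmx1-cre minus GREmx1-cre on that log2 scale ± the standard error (SE) of the fit, with n = 3 and 4. The spread behind each SE was estimated from all 15 arrays. Adjusted p-values come from limma and were adjusted by the Benjamini-Hochberg method across 22872 genes, and "rose", "fell" or "called" means an adjusted p of at most 0.05. Each genotype lay alone on 1 slide, so an effect of the slide and one of genotype cannot be told apart here. Of the listed markers of the regions of the hippocampus, 21 of 22 for dentate granule cells, 13 of 14 for CA1, 14 of 15 for CA2 and 14 of 15 for CA3 passed the filter on low signal.

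Nr3c1 was low in both groups. The probe read -0.66, -0.53, -0.64 and -0.58 on the GREmx1-cre arrays and -0.08, -0.03 and 0.09 on the GRMREmx1-cre arrays, against 1.49 to 1.79 in dflox and 2.08 to 2.28 in MREmx1-cre. Between the 2 groups that lack GR it rose by 0.60 ± 0.0838 (adjusted p = 0.000647), and the other Nr3c1 probes stood at 0.49, 0.47 and 0.56. Nr3c2 read -3.09, -3.15, -3.06 and -3.04 without GR and -3.71, -3.72 and -4.01 without both receptors, and these arrays did not overlap. It fell to 60.2% (-0.73 ± 0.0928, adjusted p = 0.000383), with the other probes at -0.45 and -0.84. The same probe ran from -3.65 to -3.36 in dflox and from -3.76 to -3.46 in MREmx1-cre, where MR is deleted too, and there it did not pass the test (-0.11, adjusted p = 0.48). Where these probes lie relative to the deleted exons was not analysed here, so the Nr3c2 signal checks neither the loss of MR nor the labels.

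Of the 22872 genes tested, 3690 were called (16.1%), of which 2110 rose (9.23%) and 1580 fell (6.91%). Most differences were small. At least 1.5-fold was reached by 1023 of the called genes (677 higher, 346 lower) and at least 2-fold by 339 (216 higher, 123 lower). The 3 GRMREmx1-cre arrays lay wholly above the 4 GREmx1-cre arrays for 3904 genes (17.1%) and wholly below for 2909 (12.7%). The median difference over all genes was 0.02. Leaving out GRMREmx1-cre replicate 2 lowered the number of calls to 2077, and leaving out GRMREmx1-cre replicate 3 lowered it to 2231. A planned normexp background correction, which met aberrant local backgrounds on the GRMREmx1-cre arrays, turned the sign of 23 of the 145 named genes (Grem1, Rtl3, Tmem215, Tmprss6, Npnt and Nr3c2 among them), and with those backgrounds replaced it turned none, while 16 of the 145 were no longer called.

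The largest falls held genes of hippocampal cell identity, extracellular regulators and corticosteroid targets. Spink8, a Kazal-type protease inhibitor and marker of CA1 pyramidal cells, read 2.98, 2.74, 2.82 and 2.65 in GREmx1-cre and -0.94, -1.06 and -1.07 in GRMREmx1-cre. Its transcript fell to 7.08% (-3.82 ± 0.279, adjusted p = 1.04e-05). Every GRMREmx1-cre array was more than 3 log2 units below every GREmx1-cre array. In bulk tissue, fewer cells of a type and less RNA per cell cannot be told apart, here and in each result on cell markers that follows. Dsp encodes desmoplakin, a desmosomal protein that marks dentate granule cells in the hippocampus. It read 0.12, -0.04, -0.06 and -0.21 without GR and -2.98, -2.93 and -3.01 without both receptors, and fell to 13.1% (-2.93 ± 0.144, adjusted p = 1.04e-06).

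Grem1, a secreted antagonist of bone morphogenetic proteins (BMPs), went from -2.56, -2.82, -2.89 and -3.25 to -6.53, -6.18 and -6.21. It was not well above background on any GRMREmx1-cre array, so its fall is a bound, at least 10.8-fold (adjusted p = 9.88e-05). In such bounds each array of the dim group takes the larger of 2 values: the probe's own signal, or the faintest signal that still counted as well above background there. By the same measure Rtl3, a gene derived from a retrotransposon, was at least 5.94-fold lower (adjusted p = 4.74e-05), and Tmem215, a transmembrane protein, at least 4.69-fold lower (adjusted p = 4.92e-05). These 3 transcripts were measured in GREmx1-cre and at background where both receptors were absent.

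Rasd1, a small GTPase named for its induction by dexamethasone, read 0.96, 0.88, 0.75 and 0.96 in GREmx1-cre and -2.40, -2.37 and -1.54 in GRMREmx1-cre, and fell to 12.6% (-2.99 ± 0.22, adjusted p = 1.04e-05). Fkbp5, a co-chaperone of steroid receptors and a classical corticosteroid target, read -1.37, -1.03, -1.10 and -0.82 and then -3.29, -3.17 and -3.33. It fell to 22.0% (-2.18 ± 0.227, adjusted p = 0.000112), and its other probes stood at -1.76 and -1.93. Both transcripts were well above background in the absence of GR and lower, on every array, where MR was absent too. Further members of the 12 largest falls were Gm34996 (-3.85 ± 0.221), Olfml2b, an olfactomedin-domain matrix protein (-2.79 ± 0.22), and Tmprss6, a membrane serine protease (-2.67 ± 0.339). Wipf3, which binds actin regulators of the WASP family, fell by 2.27 ± 0.175 on the log2 scale from a fit with 2 GRMREmx1-cre arrays, since its spot was flagged as an outlier on replicate 1. Aoc1, the histamine-degrading diamine oxidase, was the most scattered of the 12: it read -1.44, -3.32, -4.95 and -5.06 in GREmx1-cre and -7.26, -6.18 and -6.22 in GRMREmx1-cre (-2.86 ± 0.797, adjusted p = 0.0287). The Aoc1 call was lost without GREmx1-cre replicate 2 or any 1 of the GRMREmx1-cre arrays (differences between -3.31 and -2.11), and under normexp with aberrant backgrounds replaced (-1.05).

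Among the rises, Aldh1a3 stood first. It encodes a retinaldehyde dehydrogenase that makes retinoic acid. It read -4.17, -3.99, -3.75 and -3.94 in GREmx1-cre and -0.43, -0.03 and -0.52 in GRMREmx1-cre, a 12.4-fold rise (3.64 ± 0.25, adjusted p = 7.7e-06). Krt12, a keratin best known from the cornea, rose from -2.89, -2.10, -2.51 and -2.56 to -0.20, -0.49 and -0.54 (2.11 ± 0.166, adjusted p = 1.72e-05). Hspb3, a small heat shock protein, rose 4.0-fold (2.0 ± 0.15, adjusted p = 1.14e-05). In all of these, the replicate arrays of a group lay closer to each other than to the other group.

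Cxcl5, a chemokine that attracts neutrophils, read -2.61, -2.85, -2.33 and -2.32 in GREmx1-cre and -0.68, -0.24 and -0.02 in GRMREmx1-cre (2.21 ± 0.423, adjusted p = 0.00416). Several of the other large rises lay near the lower end of the signal. C1qtnf3, a secreted C1q and tumour necrosis factor-related protein, was not well above background on any GREmx1-cre array and was at least 3.82-fold higher (adjusted p = 0.0109), but not without GRMREmx1-cre replicate 2 (differences between 2.37 and 3.35 over the arrays left out). Cyp4a14, a fatty acid hydroxylase, was at least 3.11-fold higher (adjusted p = 0.0171), and its call was lost without GRMREmx1-cre replicate 1 or 2 (1.63 to 2.09). The olfactory receptor genes Olfr218, Olfr295 and Olfr1044 were at least 3.88-fold, 2.01-fold and 1.79-fold higher (adjusted p = 0.00199, 0.00275 and 0.000588), all from background in GREmx1-cre. These bounds hold for the scanner's processed signal: under normexp with aberrant backgrounds replaced, the differences of Olfr1044 and Olfr295 were 0.19 and 0.21 and no longer called. Olfr594, of the same family, rose by 1.99 ± 0.505 and lost the call without GRMREmx1-cre replicate 1 or 2 (1.64 to 2.35). Gm16367 rose by 1.92 ± 0.379 (adjusted p = 0.00495). Otoa, an inner ear protein, rested on 1 array: it read -2.27 on GRMREmx1-cre replicate 1 and -5.63 and -5.36 on the others, against -6.98 to -6.17 in GREmx1-cre. Its difference of 2.01 ± 0.639 (adjusted p = 0.0491) was 0.94 without that array, and the call was also lost without any 1 of the GREmx1-cre arrays (up to 2.62) and under normexp with aberrant backgrounds replaced (0.53).

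**Figure D1:**
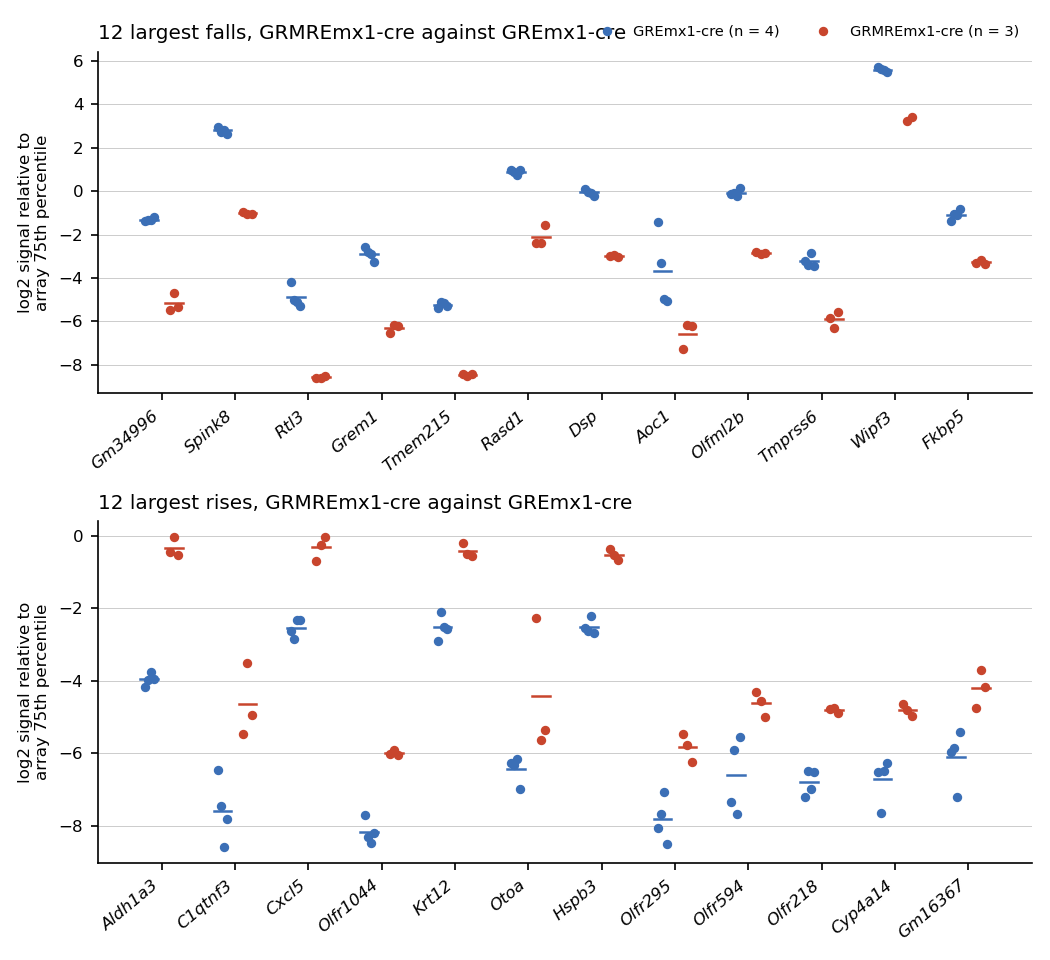
Log2 signal relative to each array's 75th percentile for the 12 largest falls (top) and the 12 largest rises (bottom); each point is 1 array, blue for GREmx1-cre (n = 4) and red for GRMREmx1-cre (n = 3), and bars are group means. The groups do not overlap in any of the 24 genes, as the naming rule requires, while Aoc1 and Otoa show the widest scatter within a group and Wipf3 has 2 red points because 1 spot was left out.

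Corticosteroid-induced genes are the textbook targets of GR and MR, and in GREmx1-cre mice MR is the remaining receptor of the pair in Emx1-lineage cells. Of the 30 genes listed, 28 passed the filter. Of these, 11 fell and 2 rose, against 6.91% and 9.23% of all genes, and the median difference was -0.23 against 0.02. The mean of the list, relative to its mean over all 15 arrays, ran from -0.01 to 0.21 on the GREmx1-cre arrays and was -0.29 on each of the 3 GRMREmx1-cre arrays to 2 decimals, so the groups did not overlap. Fkbp5 and Rasd1, given above, fell furthest. Cebpd, a transcription factor of the C/EBP family, read 3.10, 2.94, 3.06 and 2.99 and then 1.80, 1.84 and 1.53, and fell to 40.6% (-1.30 ± 0.192, adjusted p = 0.000903). Bcl6, a transcriptional repressor, differed by -0.95 (adjusted p = 0.00135), and Klf9, a Krüppel-like transcription factor, by -0.50 (adjusted p = 0.00191). Smaller falls came from Cebpb (-0.42), Errfi1, a feedback inhibitor of the epidermal growth factor receptor (-0.42), and Gpd1, a glycerol phosphate dehydrogenase (-0.38). Arrdc2, an arrestin-domain protein, fell by 0.72 on the log2 scale and is also 1 of the 200 genes nearest Nr3c2, whose alleles can differ between the groups.

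The remaining calls in this list were weak. Ddit4, an inhibitor of mTOR signalling, stood at -0.44 (adjusted p = 0.0436), a call lost without any 1 of the 7 arrays (-0.48 to -0.40). Mt1, a metallothionein, stood at -0.24 (adjusted p = 0.0278), a call lost on leaving out 1 of GREmx1-cre replicates 3 and 4 or GRMREmx1-cre replicates 1 and 2 (-0.28 to -0.18). Whether alleles linked to Nr3c2 reach as far as Mt1 was not tested. The rises were Dusp1, a phosphatase of MAP kinases (0.72, adjusted p = 0.0293), and Pdk4, a kinase that restrains pyruvate oxidation (0.40, adjusted p = 0.0455). Neither was called when 1 of GREmx1-cre replicates 1, 3 and 4 or GRMREmx1-cre replicates 1 and 2 was missing (Dusp1 0.63 to 0.82, Pdk4 0.36 to 0.48), and Pdk4 also not without GREmx1-cre replicate 2. Other well-known targets did not pass: Sgk1, the kinase through which aldosterone acts on sodium transport, stood at -0.25 (adjusted p = 0.417), Per1, a clock gene with a corticosteroid-responsive promoter, at -0.14 (adjusted p = 0.709), and Tsc22d3, the leucine zipper protein GILZ, at -0.05 (adjusted p = 0.797).

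GR and MR bind as dimers to an element made of 2 arms in opposite orientation with 3 bases between them. The promoters of the list (RefSeq, GRCm38.p6, 250 bases before to 50 after the start) were searched for GNACA, 3 bases of any kind and then TGTNC, with N any base, a motif that reads the same on both strands. It was found in 145 of 27025 genes with a promoter in the table (0.537%). Of the 23 list genes with a promoter there, 3 held it: Sgk1 at chr10:21993662-21993754 (+), Mt1 at chr8:94178955-94179047 (+) and Fam107a at chr14:8309845-8309937 (-). They are shown because they are the list's matches near a gene start, with the match in capitals and 40 bases on either side.
Sgk1: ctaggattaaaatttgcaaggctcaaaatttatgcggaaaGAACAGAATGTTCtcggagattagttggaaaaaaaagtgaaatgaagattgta
Mt1: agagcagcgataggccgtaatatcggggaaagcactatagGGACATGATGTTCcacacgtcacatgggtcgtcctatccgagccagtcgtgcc
Fam107a: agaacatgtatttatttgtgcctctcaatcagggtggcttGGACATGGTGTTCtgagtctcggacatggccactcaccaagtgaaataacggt

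Of these 3 genes, Mt1 had the weak call given above. Sgk1 did not pass, and neither did Fam107a, an actin-associated protein (-0.35, adjusted p = 0.119). Among the 8 genes of the list that fell and had a promoter in the table, Mt1 was the 1 with a match. The single arm AGAACA, searched on both strands and partly overlapping the longer motif, was present in 21.3% of all genes and in 5 of the 23 of the list. Over all tested genes with a symbol and a promoter, the longer motif was found in 58 of 12673 (0.458%). It was found in 6 of 1025 genes that fell (0.585%), in 2 of 1223 that rose (0.164%), in 0 of the 9 largest falls with a promoter and in 0 of the 8 largest rises with one. A match is a description of letters in this window, and elements farther from a start, as known for Fkbp5, lie outside it.

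Markers of dentate granule cells and of CA2 and CA3 pyramidal cells fell together. In the dentate list 11 of 21 tested genes fell and 3 rose (median -0.34), in the CA2 list 8 of 14 fell and none rose (median -0.33), and in the CA3 list 6 of 14 fell and 1 rose (median -0.33). The list means ran from 0.13 to 0.35 and, with MR also lost, from -0.43 to -0.24 for the dentate, from 0.20 to 0.33 and from -0.29 to -0.23 for CA2, and from 0.24 to 0.33 and from -0.34 to -0.19 for CA3. The groups did not overlap in any of the 3. Without GRMREmx1-cre replicate 1 or 2 the falls in the CA2 list numbered 5, the dentate rises numbered 1 when any of GREmx1-cre replicates 2 and 4 and GRMREmx1-cre replicates 2 and 3 was missing, and the single CA3 rise (Tyro3, a receptor tyrosine kinase, 0.27, adjusted p = 0.0494) was lost without any 1 array other than GREmx1-cre replicate 2.

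In the dentate, Npnt, the matrix protein nephronectin, read -3.37, -3.52, -4.05 and -4.12 and then -5.31, -5.64 and -5.82, and fell to 28.2% (-1.83 ± 0.213, adjusted p = 0.000229). The other Npnt probes stood at -1.01 and -1.26. Tdo2, the tryptophan dioxygenase found in granule cells, differed by -0.93 (adjusted p = 0.00782), and the synaptic organiser C1ql2 by -0.69 (adjusted p = 0.00406). Not every granule cell gene fell. Marcks, an actin-binding substrate of protein kinase C, rose on every array, from 3.62 to 3.78 up to 4.14 to 4.16 (0.44 ± 0.0472, adjusted p = 0.000143), and Prox1, the transcription factor that defines granule cells, did not pass (-0.32, adjusted p = 0.187).

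In CA2, Amigo2, an adhesion protein used to outline this field, read -1.75, -1.76, -1.78 and -1.58 in GREmx1-cre and -3.08, -3.09 and -3.14 in GRMREmx1-cre, and fell to 38.3% (-1.39 ± 0.206, adjusted p = 0.000975). Ccdc3, a secreted coiled-coil protein, fell to 42.4% (-1.24 ± 0.149, adjusted p = 0.000277). Necab2, a neuronal calcium-binding protein, went from 3.90, 4.23, 4.06 and 4.09 to 2.79, 2.95 and 3.37 and fell to 49.0% (-1.03 ± 0.153, adjusted p = 0.000976). Stard5, a cholesterol-binding protein, fell less (-0.52 ± 0.0795, adjusted p = 0.00111), and its other probe stood at -0.18. Rgs14, a regulator of G protein signalling concentrated in CA2, did not pass (-0.23, adjusted p = 0.101).

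In CA3, Cpne7, a calcium-dependent membrane-binding copine, read 4.81, 5.18, 5.25 and 5.06 and then 2.71, 3.24 and 3.13, and fell to 24.2% (-2.05 ± 0.204, adjusted p = 9.48e-05). Homer3, a postsynaptic scaffold, fell to 32.4% (-1.62 ± 0.127, adjusted p = 1.72e-05) and is a neighbour of Nr3c2. Slc9a4, a sodium-proton exchanger, fell to 40.7% (-1.30 ± 0.133, adjusted p = 0.000101), and St18, a zinc finger transcription factor, to 54.3% (-0.88 ± 0.102, adjusted p = 0.000229). Grik4, a kainate receptor subunit enriched in CA3, stood at -0.23 (adjusted p = 0.0551).

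CA1 markers went both ways. Of 13 tested, 3 fell and 2 rose, and the median was 0.02, or -0.01 under median scaling and -0.02 under quantile scaling. Beside the fall of Spink8, Fibcd1, a chitin-binding membrane protein, went from 1.44, 1.29, 1.45 and 1.46 to 0.75, 0.88 and 0.74 (-0.62 ± 0.09, adjusted p = 0.000809). Cyp7b1, an oxysterol and neurosteroid hydroxylase, differed by -0.46 (adjusted p = 0.00538). Wfs1, an endoplasmic reticulum membrane protein abundant in CA1, rose from 3.76, 4.14, 4.02 and 4.02 to 4.67, 4.56 and 4.72 (0.66 ± 0.107, adjusted p = 0.00152), and Etv1, a transcription factor, rose by 0.39 ± 0.061 (adjusted p = 0.00127). The list mean still ran lower in GRMREmx1-cre (-0.16 to -0.12) than in GREmx1-cre (0.04 to 0.15).

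**Figure D2:**
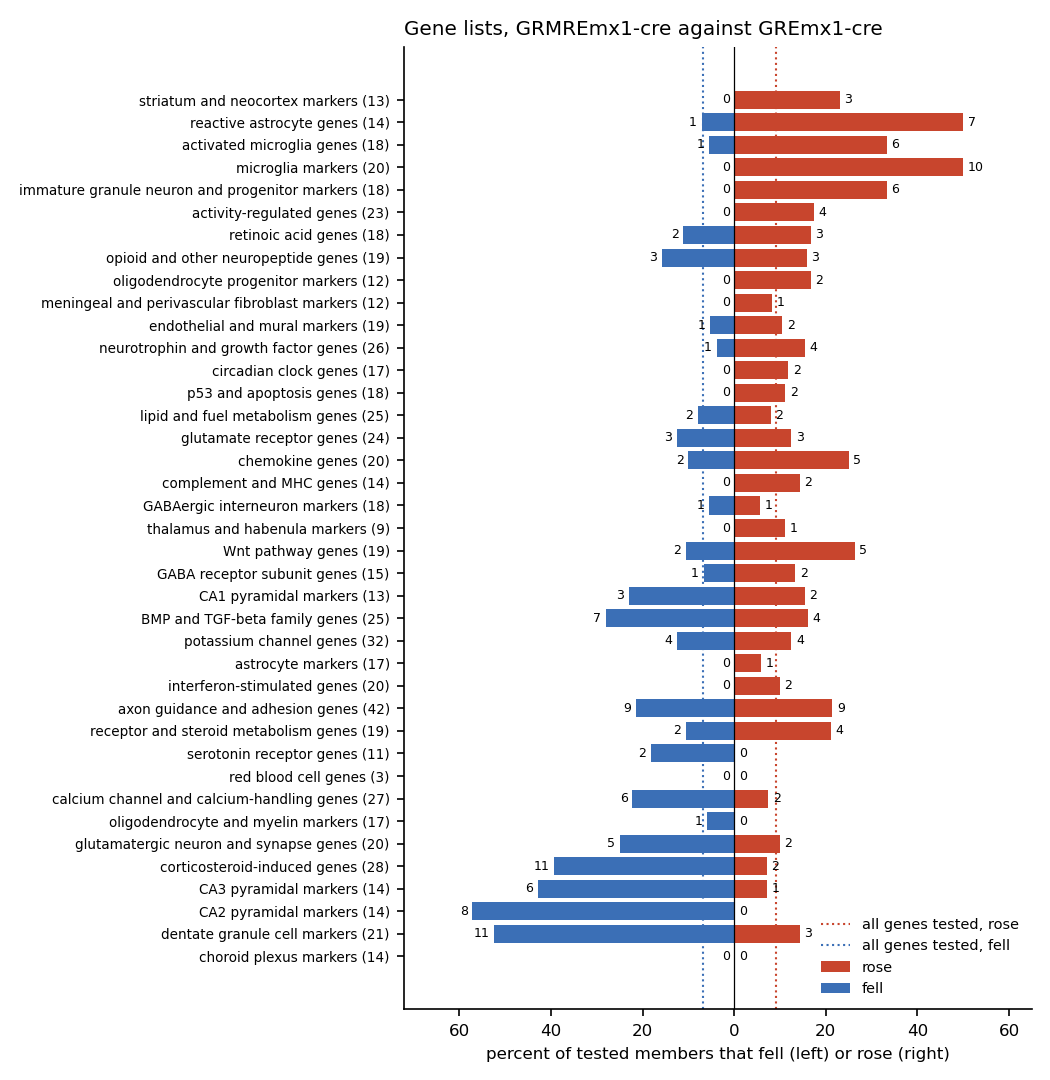
Percent of tested members of each gene list that rose (red, right) or fell (blue, left) at an adjusted p of at most 0.05, with the number of called genes beside each bar and the lists ordered by their median difference; dotted lines mark the shares over all genes tested, 9.23% up and 6.91% down. The CA2, dentate, CA3 and corticosteroid-induced lists extend to the left and the microglia and reactive astrocyte lists to the right.

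Of 20 genes shared by glutamatergic neurons and synapses, 5 fell and 2 rose, with a median of -0.12. Slc17a7, the vesicular glutamate transporter of cortical neurons, read 2.47, 2.44, 2.33 and 2.41 and then 2.11, 2.07 and 2.04, and fell to 79.2% (-0.34 ± 0.0588, adjusted p = 0.00252). Syp, the vesicle protein synaptophysin (-0.39 ± 0.0526), and Bsn, the active zone protein bassoon (-0.39 ± 0.0664), fell by similar amounts, while Stx1a, a plasma membrane SNARE, rose (0.35 ± 0.0739, adjusted p = 0.0076). The falls numbered 3 without GRMREmx1-cre replicate 2 or 3, and the rises numbered 1 when any of GREmx1-cre replicates 1, 3 and 4 and GRMREmx1-cre replicates 2 and 3 was missing. Of 18 markers of GABAergic interneurons, 1 rose and 1 fell, with a median of 0.05, and the fall was no longer called without any 1 array other than GREmx1-cre replicate 4. The rise was Nos1, the neuronal nitric oxide synthase, from -3.67, -3.71, -3.68 and -3.62 to -3.04, -2.92 and -3.21 (0.62 ± 0.0768, adjusted p = 0.000359). Gad1 and Gad2, the enzymes that make GABA, stood at 0.02 and 0.05.

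Calcium-handling genes had 6 falls and 2 rises among 27 tested (median -0.07). Calb1, the calcium buffer calbindin of granule and CA1 cells, was the clearest: it read 3.49, 3.55, 3.5 and 3.45 in GREmx1-cre and 1.91, 1.86 and 1.91 in GRMREmx1-cre, and fell to 32.9% (-1.60 ± 0.118, adjusted p = 1.04e-05). Camk2a, the alpha subunit of calmodulin kinase II, fell to 61.6% (-0.70 ± 0.114, adjusted p = 0.00162), though its other probe stood at -0.08. Cacna1g, a pore subunit of T-type calcium channels, stood at 0.51 (adjusted p = 0.002). Of 32 potassium channel genes, 4 rose and 4 fell. The largest was Kcnf1, a modulatory subunit, from 0.94, 1.16, 1.23 and 1.21 to 1.92, 1.87 and 2.06 (0.82 ± 0.102, adjusted p = 0.00035). The potassium channel falls numbered 2 without GREmx1-cre replicate 3 or GRMREmx1-cre replicate 2, and 1 without GRMREmx1-cre replicate 3.

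Among glutamate receptor genes 3 of 24 rose and 3 fell. Grin3a, an NMDA receptor subunit that lowers calcium entry, rose 2.1-fold, from 1.02 to 1.13 up to 1.93 to 2.27 (1.07 ± 0.128, adjusted p = 0.000266). The metabotropic receptors of the same group moved apart: Grm3 rose by 0.52 ± 0.0796 (adjusted p = 0.00112) and Grm2 fell by 0.91 on the log2 scale (SE 0.157, adjusted p = 0.00224). Gabra5, the extrasynaptic GABA receptor subunit of pyramidal cells, fell to 71.6% (-0.48 ± 0.0881, adjusted p = 0.00323). Htr5b, a serotonin receptor, fell to 60.8% (-0.72 ± 0.141, adjusted p = 0.0048). Htr4, another serotonin receptor, was not well above background on any GRMREmx1-cre array and was at least 2.23-fold lower (adjusted p = 0.0115), a call lost without GRMREmx1-cre replicate 3 (-1.29 to -0.98). Htr1a, the serotonin receptor classically linked to corticosteroid control in the hippocampus, stood at -0.42 (adjusted p = 0.0841).

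The opioid precursors changed in opposite directions. Penk, which encodes proenkephalin, went from 3.14, 3.37, 3.17 and 2.83 to 1.99, 1.76 and 2.28 and fell to 46.1% (-1.12 ± 0.196, adjusted p = 0.00256). Pdyn, which encodes prodynorphin of the mossy fibres, went from 2.76, 2.38, 2.56 and 2.33 to 3.72, 3.60 and 3.15, a 1.98-fold rise (0.98 ± 0.161, adjusted p = 0.00169). Neither gene's arrays overlapped. Elsewhere in the list of opioid and other neuropeptide genes, Nmb, neuromedin B, fell to 71.6% (adjusted p = 0.00394). Nptx1, listed there though it encodes a secreted pentraxin of synapses and not a neuropeptide, fell to 58.3% (adjusted p = 0.000913).

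BMP and TGF-beta family genes had 7 falls and 4 rises among 25 tested, with a median of 0.02 (-0.01 under median scaling), and the rises numbered 2 without GRMREmx1-cre replicate 2. The falls included several antagonists. Beside Grem1, Lefty1, an inhibitor of Nodal signalling, read 0.61, 0.74, 0.68 and 0.83 and then -1.42, -1.51 and -1.45, and fell to 22.1% (-2.18 ± 0.223, adjusted p = 0.000101). The activin-binding follistatin gene Fst differed by -1.41 (adjusted p = 0.00786) and the BMP antagonist chordin, Chrd, by -0.67 (adjusted p = 0.00112). Bambi, a pseudoreceptor, differed by -0.64 (adjusted p = 0.0032). Of the ligands, Tgfb2 fell to 57.2% (-0.81 ± 0.11, adjusted p = 0.000557), and Bmp3, an atypical BMP, rose 3.2-fold, from -4.49, -3.91, -4.10 and -4.57 to -2.41, -2.74 and -2.61 (1.68 ± 0.25, adjusted p = 0.000969).

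Wnt pathway genes showed 5 rises and 2 falls among 19 tested. Frzb, a secreted Wnt inhibitor, read 0.10, 0.15, 0.19 and 0.04 and then -1.40, -1.31 and -1.51, and fell to 34.7% (-1.53 ± 0.0882, adjusted p = 1.51e-06). The ligand Wnt9a fell to 42.2% (-1.25 ± 0.17, adjusted p = 0.000569), though its other probe stood at -0.53. Axin2, a target and feedback inhibitor of the pathway, rose by 0.45 ± 0.0699 (adjusted p = 0.00117), and Dkk2, another secreted modulator, differed by 1.62 (adjusted p = 0.00269). In the retinoic acid list, 3 of 18 genes rose and 2 fell. The receptors Rxrg (1.09 ± 0.218, adjusted p = 0.00523) and Rarb (0.48 ± 0.0744, adjusted p = 0.00123) rose with Aldh1a3, while the binding protein gene Crabp1 fell to 34.7% (-1.53 ± 0.23, adjusted p = 0.00103) and Aldh1a1, a related dehydrogenase, stood at -0.60 (adjusted p = 0.0057).

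Of 42 axon guidance and adhesion genes 9 rose and 9 fell, both shares above those of all genes. Slit2 and Slit1, repellent ligands of Robo receptors, moved apart. Slit2 read 1.03, 1.08, 0.93 and 0.97 and then 2.31, 2.39 and 2.04, a 2.37-fold rise (1.24 ± 0.121, adjusted p = 7.94e-05). Slit1 read 0.43, 0.19, 0.27 and 0.17 and then -0.70, -0.71 and -0.78, and fell to 50.2% (-0.99 ± 0.0899, adjusted p = 4.74e-05). Robo3, a receptor of the same system, fell to 35.7% (-1.49 ± 0.189, adjusted p = 0.000383), and the protocadherin gene Pcdh20 to 56.1% (-0.83 ± 0.0966, adjusted p = 0.000229). Dcc, a netrin receptor, stood at 0.56 (adjusted p = 0.000386) and Plxnd1, a semaphorin receptor, at 0.76 (adjusted p = 0.000901). Of the growth factor genes, Fgfr1, a fibroblast growth factor receptor, fell to 64.5% (-0.63 ± 0.0888, adjusted p = 0.000662) and Igfbp5, a binding protein of insulin-like growth factors, rose 1.45-fold (0.53 ± 0.097, adjusted p = 0.00311), while Bdnf, the neurotrophin, stood at -0.30 (adjusted p = 0.072).

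Microglial transcripts were higher where both receptors were absent. Of 20 markers, 10 rose and none fell (median 0.29), and the list mean was -0.19 to -0.06 on the GREmx1-cre arrays and 0.16 to 0.33 on the GRMREmx1-cre arrays. Gpr34, a microglial lysophospholipid receptor, read -1.36, -1.26, -1.24 and -1.39 and then -0.46, -0.41 and -0.57, a 1.78-fold rise (0.83 ± 0.0595, adjusted p = 1.04e-05). Itgam, the integrin CD11b (0.66 ± 0.0946, adjusted p = 0.000749), Siglech, a sialic acid-binding receptor (0.64 ± 0.101, adjusted p = 0.00133), and P2ry12, a purine receptor of resting microglia (0.62 ± 0.112, adjusted p = 0.00316), rose by similar amounts, though the other Itgam probe stood at 0.25. Tmem119 and Cx3cr1, which also define the type, stood at -0.03 and 0.17 and did not pass. Without GRMREmx1-cre replicate 2 the rises numbered 6.

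Genes of activated microglia had 6 rises and 1 fall among 18 tested (median 0.34). Cst7, the cystatin F of activated microglia, read -5.85, -5.91, -5.29 and -5.65 and then -4.43, -3.85 and -4.0 (1.58 ± 0.199, adjusted p = 0.000366) and was the 1 member whose call held without each of the 7 arrays. The rises numbered 1 without GRMREmx1-cre replicate 2 or 3 and 3 without GREmx1-cre replicate 1 or 2, and the fall was lost without any 1 array other than GREmx1-cre replicate 1 or 4. Chemokine genes had 5 rises and 2 falls among 20. Ccl17 went from -3.52, -3.03, -2.55 and -3.14 to -2.05, -1.70 and -1.60 (1.28 ± 0.187, adjusted p = 0.000874), and Ccl4 differed by 0.95 (adjusted p = 0.00432). Ackr3, a scavenger of Cxcl12, fell to 70.1% (-0.51 ± 0.0808, adjusted p = 0.00132). The chemokine falls numbered 1 when any of GREmx1-cre replicate 3 and GRMREmx1-cre replicates 1 and 3 was missing.

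Reactive astrocyte genes had 7 rises and 1 fall among 14 (median 0.39), with list means from -0.18 to 0.04 without GR and from 0.12 to 0.29 without both receptors. The rises numbered 4 without GRMREmx1-cre replicate 2. Cd44, a hyaluronan receptor, rose 1.99-fold (0.99 ± 0.187, adjusted p = 0.00394), Osmr, the receptor of oncostatin M, 1.65-fold (0.72 ± 0.109, adjusted p = 0.00104), and Cd14, a co-receptor of Toll-like receptors that microglia also express, 1.44-fold (0.52 ± 0.0681, adjusted p = 0.000459). Serpina3n, a secreted protease inhibitor and common marker of reactive astrocytes, differed the other way (-0.82, adjusted p = 0.00677), and Gfap stood at 0.19 (adjusted p = 0.231). Of 17 general astrocyte markers 1 rose, the gap junction gene Gja1 (0.35 ± 0.0744, adjusted p = 0.00723), and the list means of the groups overlapped. Without GREmx1-cre replicate 1 the rises in that list numbered 2.

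Markers of immature granule neurons and progenitors had 6 rises and no fall among 18 (median 0.29). Neurog2 (0.89 ± 0.154, adjusted p = 0.00224) and Sox11 (0.66 ± 0.102, adjusted p = 0.00116) are transcription factors of progenitors and young neurons, and Hopx marks adult neural stem cells and also astrocytes (0.45 ± 0.0801, adjusted p = 0.0029). Sox11 read 0.05, -0.20, -0.12 and -0.34 and then 0.49, 0.54 and 0.50. Of the genes of dividing cells, Mki67 stood at -0.31 (adjusted p = 0.793) and Top2a at 0.11 (adjusted p = 0.738), so neither passed. Activity-regulated genes, which respond to recent neuronal firing, had 4 rises and no fall among 23 (median 0.25), and this number was 1 when any of GREmx1-cre replicates 1 and 4 and GRMREmx1-cre replicates 2 and 3 was missing, and 2 without GREmx1-cre replicate 2. Nr4a2, an orphan nuclear receptor, kept its call without each array (0.64 ± 0.14, adjusted p = 0.00854), while Fos stood at 0.98 (adjusted p = 0.104) and Arc at 0.38 (adjusted p = 0.347). Of 18 genes of p53 signalling and apoptosis, Gadd45a, a stress-responsive gene (0.62 ± 0.0823, adjusted p = 0.000482), and Bcl2, an inhibitor of apoptosis (0.37 ± 0.0795, adjusted p = 0.00792), rose and none fell, and the rises numbered 4 without GRMREmx1-cre replicate 3.

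Markers of neighbouring tissue were looked at beside these results. Choroid plexus markers had 0 calls among 14, but spread widely, with list means from -0.21 to 0.94 in GREmx1-cre and from -0.49 to -0.01 in GRMREmx1-cre. By limma, 0 of the 14 had an unadjusted p of at most 0.05, and their differences ran from -0.88 to -0.23. Thalamus and habenula markers read 0.58 on GREmx1-cre replicate 1 and from -0.15 to -0.09 on the others of that group. Markers of striatum and neocortex moved with genotype: 3 of 13 rose and none fell (median 0.41), with list means from -0.50 to -0.06 in GREmx1-cre and from 0.05 to 0.33 in GRMREmx1-cre, and the rises numbered 1 without GRMREmx1-cre replicate 1 or 2. Of these, Rspo1, a secreted Wnt agonist, rose 2.41-fold (1.27 ± 0.174, adjusted p = 0.000588). Their part in the rises and falls above was not tested. Oligodendrocyte, endothelial, fibroblast, interferon and complement lists each had at most 2 calls in either direction, and all of the interferon calls were lost without any 1 array other than GREmx1-cre replicate 1 or GRMREmx1-cre replicate 1.

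**Figure D3:**
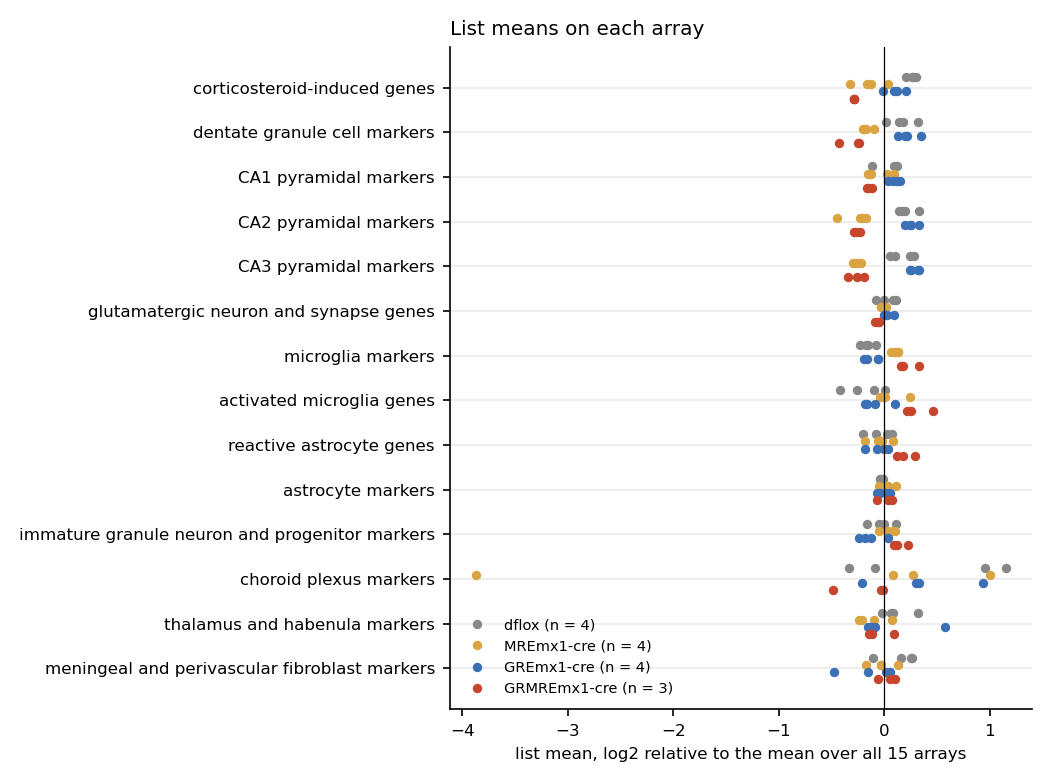
Mean of each gene list on each array, in log2 relative to the mean of that list over all 15 arrays; grey, dflox (n = 4); ochre, MREmx1-cre (n = 4); blue, GREmx1-cre (n = 4); red, GRMREmx1-cre (n = 3). Red points lie below all blue points for the corticosteroid, dentate, CA2 and CA3 lists and above them for microglia, while choroid plexus markers are scattered in every genotype.

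The same receptor was lost in MREmx1-cre mice, which keep GR, and these were compared with dflox. That comparison uses none of the 7 arrays and shares the estimate of the spread. It differs in that Cre and the floxed Nr3c1 allele also separate its groups, by the design as read here. There, 1556 of 22872 genes were called (6.8%), 962 up (4.21%) and 594 down (2.6%). MREmx1-cre replicate 2, which is part of that comparison, stood far below the other arrays in choroid plexus markers (list mean -3.87). Its part in these calls and in the interactions was not tested. Both comparisons called 879 genes, and 848 of them in the same direction, which is 23% of the genes called without GR and 54.5% of those called with GR. Of the 3690 genes called without GR, 2850 (77.2%) had the same sign with GR, and the same share over all genes tested was not counted. Over all genes the log2 differences of the comparisons correlated at r = 0.38, a description across genes, which are not independent.

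Several of the largest differences were called in both settings. Dsp stood at -2.93 without GR and -2.48 with GR, Spink8 at -3.82 and -2.19, Grem1 at -3.43 and -2.59, Fkbp5 at -2.18 and -1.48, Calb1 at -1.60 and -1.39, and Aldh1a3 at 3.64 and 2.88. None of these 6 passed the interaction test, in which the difference with GR is subtracted from the difference without GR (adjusted p from 0.0581 for Spink8 to 0.54 for Calb1). The interaction is estimated with an SE of 0.196 for Dsp and 0.381 for Spink8, so differences of that order between the settings were not detectable. Not passing does not show equal change: Spink8, at -3.82 against -2.19, lay just above the threshold (adjusted p = 0.0581). The corticosteroid-induced list had 10 falls and no rise with GR present (median -0.34), against 11 and 2 without GR.

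The interaction was called for 295 genes (1.29%), 117 higher (0.512%) and 178 lower (0.778%), and 262 of them were among the 3690. Crnde, Ccl17 and Gpr34 were called by interaction with all arrays and without each of the 7 arrays in turn. Crnde, a long noncoding RNA, fell without GR (-1.75 ± 0.224, adjusted p = 0.000398) and rose with GR (1.01, adjusted p = 0.0121). It read -5.56, -6.31, -5.27 and -6.20 in dflox, -4.89, -5.00, -4.54 and -4.88 in MREmx1-cre, -3.20, -3.06, -3.47 and -3.20 in GREmx1-cre, and -4.85, -4.84 and -5.26 in GRMREmx1-cre, so GREmx1-cre was the high group (interaction -2.76, adjusted p = 0.00259). Ccl17 differed by 1.28 without GR and -0.44 with GR (interaction 1.72, adjusted p = 0.00916), and its GREmx1-cre arrays were the low group, against -1.88 to -1.66 in dflox. Whether alleles linked to Nr3c2 take part in the Crnde and Ccl17 interactions was not tested. Gpr34 differed by 0.83 and 0.32 (interaction 0.51, adjusted p = 0.013). Rasd1 fell more without GR (-2.99) than with GR (-1.58), with an interaction of -1.41 (adjusted p = 0.0449) that was no longer called without any 1 of the GREmx1-cre arrays or GRMREmx1-cre replicate 1 or 2 (-1.70 to -1.27).

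**Figure D4:**
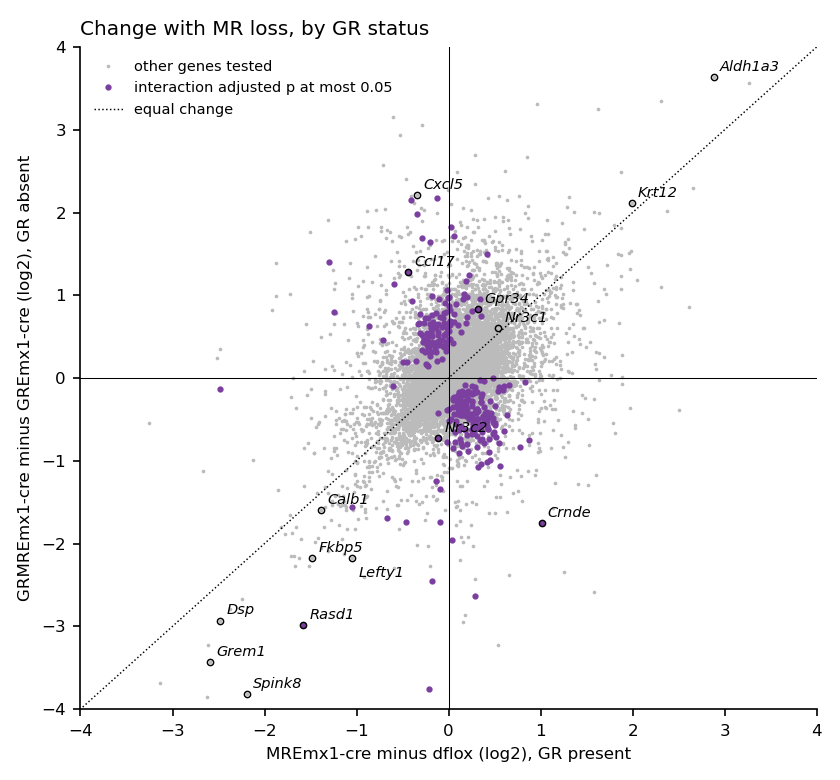
Log2 difference with MR loss in the presence of GR (x axis, MREmx1-cre minus dflox) against that in its absence (y axis, GRMREmx1-cre minus GREmx1-cre) for all genes tested; purple points have a called interaction, and the dotted line marks equal change. Dsp, Grem1, Spink8, Fkbp5 and Calb1 lie at the lower left and Aldh1a3 and Krt12 at the upper right, while Crnde lies at the lower right, falling without GR and rising with it.

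Genes beside Nr3c2 need a separate account, because GRMREmx1-cre mice carry the floxed Nr3c2 allele and the DNA bred along with it, and GREmx1-cre mice, by the design as read here, do not. Of the 200 tested genes with a symbol nearest Nr3c2 in gene order, 100 on either side, 68 were called (34%), 33 higher and 35 lower, against 17.7% of the remaining symbol-bearing genes. In MREmx1-cre against dflox, where both groups carry floxed Nr3c2, 14 of the 200 were called (7%), against 7.58% of the others. The calls were spread over the window: 11 of the 50 genes at ranks 1 to 25 on either side, 18 at ranks 26 to 50, 20 at ranks 51 to 75 and 19 at ranks 76 to 100. They did not thin toward its edges, and how far linked DNA reaches beyond the window was not tested. An interaction was called for 19 of the 200 (9.5%), against 163 of the 15744 remaining symbol-bearing genes (1.04%) and 1.29% of all genes tested.

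The largest rise among these neighbours was Ocel1, an occludin and ELL domain protein. It read 2.23, 2.38 and 2.23 in GRMREmx1-cre and -0.70, -0.82 and -0.68 on 3 of the GREmx1-cre arrays, but 1.37 on GREmx1-cre replicate 1 (2.49 ± 0.395, adjusted p = 0.00136). Zfp423, a zinc finger transcription factor, rose 2.44-fold (1.29 ± 0.214, adjusted p = 0.00185), though its other probe stood at 0.48. Klf1, an erythroid transcription factor near background, rose by 1.43 ± 0.38 (adjusted p = 0.023), a call lost when 1 of GREmx1-cre replicate 2 and GRMREmx1-cre replicates 2 and 3 was missing (1.15 to 1.60) and under normexp with aberrant backgrounds replaced (0.26). Among the largest falls were Slc5a5, the sodium iodide symporter, from -2.69, -1.71, -1.83 and -1.51 to -3.54, -3.58 and -3.58 (-1.63 ± 0.232, adjusted p = 0.000727), and Il15, a cytokine. Il15 was not well above background on any GRMREmx1-cre array and was at least 3.09-fold lower (adjusted p = 0.0226), a call lost when 1 of GREmx1-cre replicates 2 and 4 or GRMREmx1-cre replicates 1 and 2 was left out (-1.79 to -1.50). With GR present, Ocel1 stood at 0.09, Zfp423 at 0.55, Slc5a5 at -0.23 and Il15 at 0.51, none of them called. Homer3, also in the window, was called in both settings (-1.62 and -0.91), and allele and MR loss cannot be told apart for these genes in the mice without GR.

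**Figure D5:**
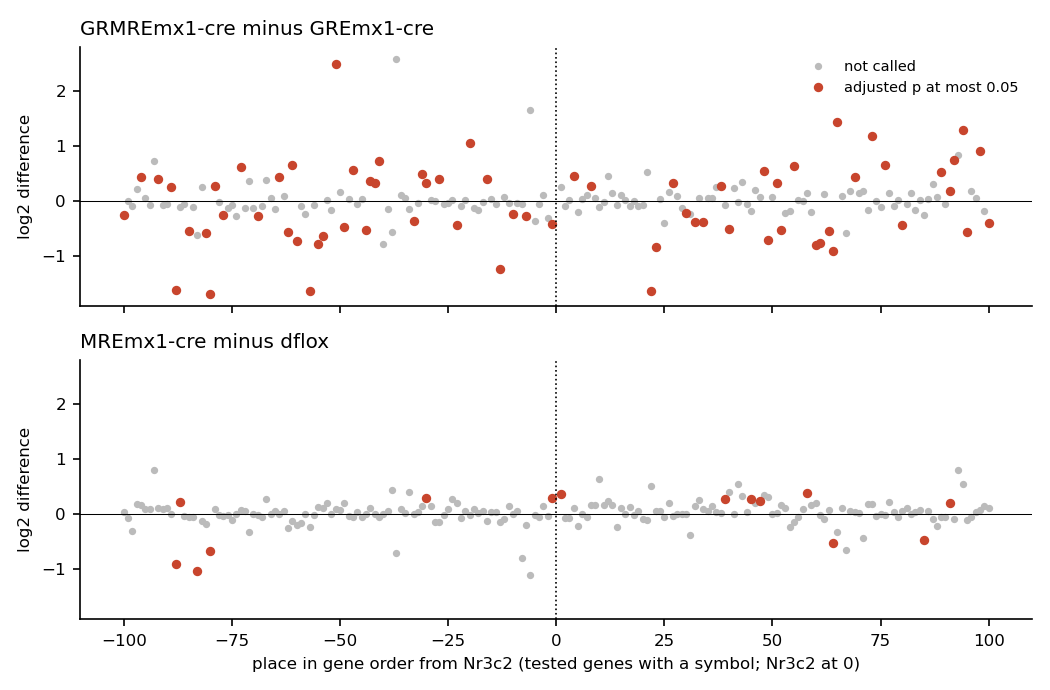
Log2 differences of the 200 tested genes nearest Nr3c2, by their place in gene order (x axis, Nr3c2 at 0), in GRMREmx1-cre minus GREmx1-cre (top) and MREmx1-cre minus dflox (bottom); red points are called at an adjusted p of at most 0.05 and grey points are not. In the top panel 68 genes are called on both sides of Nr3c2 and in both directions, and in the bottom panel 14.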

How the data were processed

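Single-colour Agilent arrays of 15 hippocampal RNA samples were read as deposited. Per the file headers, the authors' scanner files give intensity values per spot with Agilent flags as other columns, and Feature Extraction 12.0 is named in the submitters' processing notes. The deposited value table held the same processed signals at 45018 of 45018 spots. Levels are log2 of the deposited processed signal minus each array's 75th percentile over non-control spots, and 1281 outlier spots were left out. Probes well above background on at least 3 of 15 arrays were kept (30882 probes), with the brightest probe per gene (22872 genes, 15945 with a symbol). Symbols came from accessions matched to RefSeq: of 41174 probes, 28223 had 1 symbol, 0 several and 12951 none. A group-means model over all 15 arrays was fitted with limma 3.58.1 (R 4.3.3), with Benjamini-Hochberg adjustment at 0.05. Scripts were tested on simulated data. The precision is limited by 3 and 4 arrays.

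Named genes were Nr3c1, Nr3c2, the 12 largest called rises and falls with non-overlapping arrays outside the neighbours of Nr3c2, the 3 largest each way among the 200 neighbours, up to 4 called members with the smallest adjusted p per list, and the 3 largest interactions each way. Members and lists were chosen with earlier results of these data known. List members outside that rule, such as Klf9, Bcl6, Sgk1, C1ql2, Fst, Dkk2 and Serpina3n, were named after their values were seen. The alternatives were quantile and median scaling, normexp, other filters and probe rules, the 7 arrays alone, a replicate block and leaving out each array. For normexp the deposited median signal stood in for the mean signal. Same-numbered arrays correlated at 0.07, 0.01 and 0.01 after removing group means, so the numbers were not treated as pairs. Some genes that meet the naming rule are not reported here.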

Additional observations from a re-analysis of the deposited data

Results flagged for a closer look

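On GREmx1-cre arrays, 10 of the 145 named genes and 1 of the 39 list means had 1 array far from the other arrays of the group, where chance gives about 1 in 20. Those reported here follow. Replicate 1 stood apart for Ocel1 at 1.37 (others -0.82 to -0.68), Rxrg at 0.54 (others 0.99 to 1.07), Arrdc2 at -2.20 (others -1.99 to -1.97) and the mean of thalamus and habenula markers at 0.58 (others -0.15 to -0.09). Replicate 2 stood apart for Fibcd1 at 1.29 (others 1.44 to 1.46) and Cd44 at -0.32 (others -0.91 to -0.82). Replicate 3 did so for Ccdc3 at -2.11 (others -1.91 to -1.89) and Cacna1g at 0.89 (others 0.64 to 0.66), and replicate 4 for Amigo2 at -1.58 (others -1.78 to -1.75) and B2m at 1.76 (others 1.95 to 1.98).

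For several named genes, GRMREmx1-cre minus GREmx1-cre was unlike MREmx1-cre minus dflox by limma's interaction test. Cre and the floxed alleles, by the design as read here, and the slide also differ between these comparisons. A part of GR in the effect of MR loss cannot be told apart from them. The difference was higher without GR for Olfr73 (2.70), Olfr218 (2.33), Olfr1044 (2.31), Ccl17 (1.72), Hopx (0.55) and Gpr34 (0.51). It was lower without GR for D130040H23Rik (-2.92), Crnde (-2.76), Olfr401 (-1.62), Rasd1 (-1.41), Nr3c2 (-0.62) and Syp (-0.37). Of these, Ccl17, Crnde and Gpr34 kept the call without each of the 7 arrays, D130040H23Rik lost it without GRMREmx1-cre replicate 2 alone (-3.17 to -2.73), and the others lost it without 2 to 6 of the arrays. Under normexp with aberrant backgrounds replaced, the interactions of Olfr73, Olfr218, Olfr1044, Olfr401 and Syp were no longer called. There the differences without GR of Olfr73, Olfr1044 and Olfr401 were 0.07, 0.19 and -0.15, also not called. Whether alleles linked to Nr3c2 reach D130040H23Rik, Crnde or Ccl17 was not tested.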

How the results depend on the processing

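The number of genes called without GR (3690) was 14084 under the planned normexp correction, with 78.4% of calls higher against 57.2%, and lay between 2077 (without GRMREmx1-cre replicate 2) and 3147 with 1 array left out. Median scaling gave 2844 calls, 48.6% of them higher. With the spread taken from the 7 arrays alone, 2761 genes were called, and 19 of the 145 named genes lost their call. Under the planned normexp correction 115 neighbours of Nr3c2 were called, 97 genes were called the same way in both settings, MREmx1-cre against dflox had 105 calls, and the interaction had 1. That correction fitted background means of -30.61, -804.5 and -107 on the GRMREmx1-cre arrays, against -0.331 to 2.423 elsewhere, and 2, 7 and 4 spots there lay at least 10 units below their local background. With those backgrounds replaced, a step chosen after seeing the data, 3093 genes were called, and 16 of the 145 named genes lost their call. Median scaling gave 1029 calls in MREmx1-cre against dflox and 182 interactions. Interactions numbered 180 with the backgrounds replaced, 138 with no filter on dim probes, and 83 (without GRMREmx1-cre replicate 2) to 215 with 1 array left out; the cause was not tested. With the replicate block, 3652 genes were called without GR, 1828 with GR and 306 by interaction. The sign of a named gene turned when a gene's probes were averaged for Acta2 (0.13) and Adora2a (-0.04), and under the planned normexp correction for Aoc1 (0.49), Arrdc2 (0.20), B2m (-0.07), Cacnb4 (-0.09), Ccdc3 (0.06), Crabp1 (1.11), Crnde (0.49), D130040H23Rik (1.25), Grem1 (0.32), Grm2 (0.73), Htr4 (1.37), Il15 (1.17), Myrf (1.27), Npnt (0.76), Nr3c2 (0.63), Olfr401 (1.45), Rtl3 (1.0), Slc5a5 (0.01), Slc9a4 (1.15), Stard5 (0.22), Tmem215 (1.18) and Tmprss6 (0.45). Probes near background carry the least certain differences.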
